A study of Mus musculus with 18 samples.

Results

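The proximal TCR signaling genes are the 9 genes whose products carry the signal from the engaged TCR to the first adaptors beneath the plasma membrane: *Cd3d*, *Cd3e*, *Cd3g*, *Cd247*, *Lck*, *Fyn*, *Zap70*, *Lat* and *Lcp2*. They were chosen by name, as known components of this machinery, from the 37991 genes listed in the count files. No rule on their values entered the choice, but earlier results of these data were known when it was made. All 9 were among the 17240 genes with enough reads to be tested. The question put to them was whether the mRNA of this machinery is lower in tolerized than in naive CD4 T cells, at rest and after stimulation. The cells came from spleens of Tg4-H2u mice, which carry a transgenic TCR for the Ac1-9 peptide of myelin basic protein, so all 6 groups share that receptor and background. Mice were between 6 and 12 weeks old, and the study used both sexes. Tolerized mice (T) received escalating subcutaneous doses of the 4Y form of the peptide every 3 to 4 days, and control mice (N, called naive here) received PBS on the same schedule. The resting groups T0 and N0 were harvested 2 h after a last injection of PBS, and TAg and NAg 2 h after a last injection of 4Y peptide antigen (Ag). For TPI and NPI, cells were cultured for 2 h with a phorbol ester (PMA) together with the ionophore A23187 (PI), which act downstream of the receptor, and NPI is titled PBSPI in the sample labels. No library of untreated cultured cells was among the 18, so the effects of PI and of culture cannot be told apart. Each group held 3 libraries of rRNA-depleted total RNA. The CD4 T cells were enriched with magnetic beads and not sorted by phenotype, so a tolerized library holds every CD4 T cell of the tolerized spleen.

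In a T cell the TCR α and β chains have no signaling domain of their own and depend on the CD3δ, CD3ε, CD3γ and CD247 (CD3ζ) chains. The Src family kinases Lck, which is held at the CD4 coreceptor, and Fyn phosphorylate the tyrosine motifs in these chains, and the Syk family kinase ZAP-70 docks on the phosphorylated motifs. ZAP-70 then phosphorylates the membrane adaptor LAT and the cytosolic adaptor SLP-76, encoded by *Lcp2*, which together assemble the complex that activates PLCγ1. Anergic and tolerant T cells are known for weak signaling at these steps, and mRNA levels do not show the phosphorylation or the surface amount of any of these proteins.

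In the NCBIM37 (mm9) build that the count files use, the CD3 genes lie together on chromosome 9, with *Cd3g* (ENSMUSG00000002033) at chr9:44777655-44788514 on the − strand, *Cd3d* (ENSMUSG00000032094) at chr9:44789876-44795135 on the + strand and *Cd3e* (ENSMUSG00000032093) at chr9:44806826-44817673 on the − strand. *Zap70* (ENSMUSG00000026117) lies at chr1:36818695-36839663 and *Cd247* (ENSMUSG00000005763) at chr1:167718812-167807407, both on the + strand. *Lck* (ENSMUSG00000000409) is at chr4:129225588-129250885 and *Lat* (ENSMUSG00000030742) at chr7:133507346-133513057, both on the − strand, and *Fyn* (ENSMUSG00000019843) is at chr10:39088661-39285187 and *Lcp2* (ENSMUSG00000002699) at chr11:33946920-33992295, both on the + strand.

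The sequences before the start sites of 4 of the genes are shown here as a description, and no link to expression was tested. *Zap70* and *Lcp2* differed most between tolerized and naive cells after PI. *Cd3g* and *Cd3d*, which are transcribed away from each other from starts 1361 bases apart, both fell after Ag in both states. They fell by different amounts, with log2 fold changes of −1.73 and −1.34 in naive cells and −0.65 and −0.50 in tolerized cells. Each line gives the 150 bases before a RefSeq transcript start (RefSeq table of build GRCm38.p6), on the gene's strand and 5′ to 3′. Each was found by exact match in NCBIM37. Capitals mark matches, on either strand, to a cyclic AMP response element (TGACGTCA), the AP-1 motif TGANTCA, the NFAT core GGAAA, the ETS motif AGGAAG and the RUNX motif TGTGGT. None of these motifs overlapped another in the windows shown. The windows are chr1:36818493-36818642 on the + strand for *Zap70* (the most upstream of its 3 RefSeq starts), chr11:33946778-33946927 on the + strand for *Lcp2*, chr9:44788515-44788664 on the − strand for *Cd3g* and chr9:44789719-44789868 on the + strand for *Cd3d*.
Zap70: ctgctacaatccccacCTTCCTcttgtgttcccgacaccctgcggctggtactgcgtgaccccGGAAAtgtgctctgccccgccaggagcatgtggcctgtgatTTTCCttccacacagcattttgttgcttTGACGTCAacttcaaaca
Lcp2: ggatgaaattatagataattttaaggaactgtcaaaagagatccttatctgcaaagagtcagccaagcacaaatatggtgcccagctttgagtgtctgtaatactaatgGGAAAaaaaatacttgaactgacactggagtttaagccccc
Cd3g: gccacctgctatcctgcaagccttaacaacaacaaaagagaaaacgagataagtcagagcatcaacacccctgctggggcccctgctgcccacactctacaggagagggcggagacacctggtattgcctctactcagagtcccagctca
Cd3d: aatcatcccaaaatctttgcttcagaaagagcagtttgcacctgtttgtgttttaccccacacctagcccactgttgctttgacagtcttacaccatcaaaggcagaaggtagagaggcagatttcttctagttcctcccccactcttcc

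The *Zap70* window held the cyclic AMP response element 18 to 11 bases before the start, a sequence found in 1.36% of the 32843 RefSeq windows of this length. It also held 2 matches to the NFAT core and 1 to the ETS motif, which were present in 37.6% and 19.7% of all windows. *Lcp2* had 1 match to the NFAT core, 41 to 37 bases before its start. The *Cd3g* and *Cd3d* windows had no match to any of the 5 motifs. Among the most upstream windows of the 9 genes, 1 held the cyclic AMP response element, 0 the AP-1 motif (4.24% of all windows), 4 the NFAT core, 5 the ETS motif and 1 the RUNX motif (8.40% of all windows). These matches describe letters in the windows, and no binding was measured here.

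Library totals ran from 10758571 to 24119489 reads assigned to genes, with a median of 12268935, and the PI libraries were the deepest. The lowest count of any member in any library was 508 reads, for *Cd3g*. The CD4 label held against its markers, since *Cd4* stood at 2142 to 7281 normalized counts and the CD8 gene *Cd8a* at 6.46 to 47.1, while the other CD8 chain gene *Cd8b1* reached 215. Markers of other cells moved with tolerance: the summed level of 13 neutrophil genes was 72.4 to 182 in N0 against 1966 to 3508 in T0, 152 to 375 in NAg against 2354 to 4100 in TAg, and 80.1 to 203 in NPI against 482 to 805 in TPI. Of these 13 genes, 12, 13 and 9 rose in the tolerized cells at rest, after Ag and after PI, and *Ltf*, *Ngp*, *Camp* and *Ly6g* were at 0 in every NPI library. The summed level of 11 macrophage and monocyte genes was 618 to 921 in N0 against 1381 to 1780 in T0, 669 to 2596 in NAg against 1025 to 1494 in TAg, and 377.7 to 559 in NPI against 791 to 932 in TPI. Of these genes 0 were lower and 1 higher in tolerized cells at rest, 9 lower and 1 higher after Ag, and 0 lower and 2 higher after PI, with *Lyz2*, the lysozyme gene of myeloid cells, higher in all 3 comparisons. *Lyz2* made the rise of the sum at rest: its mean was 207 in N0 and 1082 in T0, beside 726 and 1529 for the sum. *Csf1r* and *Cd14* also had higher means in T0 than N0, and every other gene of the list had a lower mean. For 8 NK and CD8 T cell genes the sum was 934 to 1582 in N0 against 1621 to 1963 in T0, 872 to 1755 in NAg against 1906 to 2496 in TAg, and 1272 to 1793 in NPI against 1430 to 1554 in TPI. Of these, 1, 1 and 2 were lower and 1, 1 and 1 higher. *Cd8b1* was lower in all 3 comparisons (mean 79.2 in T0 against 205 in N0). The cytotoxic granule gene *Nkg7* was higher in all 3 (1102 to 1384 in TAg against 163 to 273 in NAg). *Nkg7* made the rise of the sum after Ag, whose mean was 1381 in NAg and 2133 in TAg. *Cd8a* and *Klrd1* also had higher means in TAg than NAg, and every other gene of this list had a lower mean. After PI every gene of the list but *Nkg7* had a lower mean in TPI than NPI. At rest *Ncr1*, *Klrb1c*, *Klra8*, *Klrk1* and *Klrd1* also had higher means in T0 than N0. Erythroid genes were summed at 36.5 to 2535 and B cell genes at 498 to 3919 over all libraries, beside 50367 to 101636 for 7 T cell surface genes. In tolerized against naive cells, 5 of 12 erythroid genes were higher at rest and 4 after Ag, and 0 of 10 tested B cell genes passed in any of the 3 comparisons (edgeR, with 0 also at an unadjusted p under 0.05). Sex was also uneven. Reads from Y-linked genes numbered over 100 in all 6 PI libraries, 2 of 3 T0 libraries and 1 of 3 TAg libraries, and at most 15 in any N0 or NAg library. In the comparison of NPI with N0 sex and treatment therefore cannot be told apart. T0 against N0, TAg against NAg, both tolerized responses and the contrasts between responses were unequal in sex in part. With Y-linked reads as a covariate, 5.7% of all tested genes were lower in T0 than N0, against 12% without it.

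**Figure D1:**
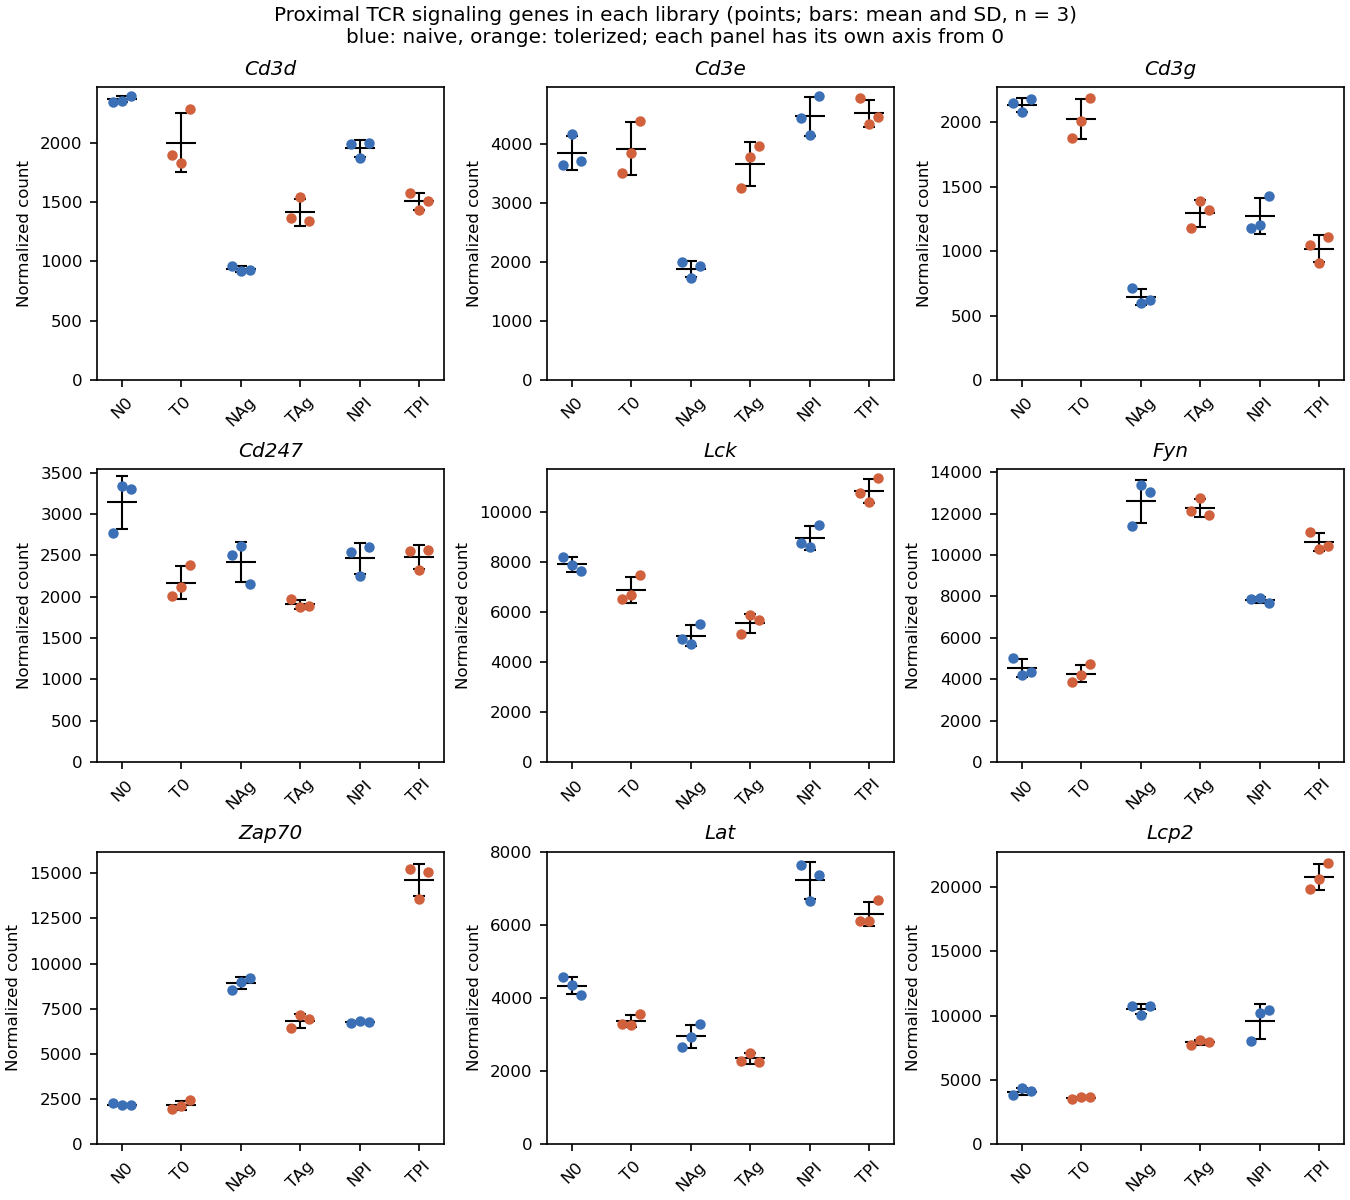
Normalized counts of the 9 proximal TCR signaling genes in each library (points), with the mean and SD of the 3 libraries of a group (bars), for naive (blue) and tolerized (orange) groups, each panel on its own axis from 0. The *Zap70* and *Lcp2* panels peak in TPI at means of 14626 and 20748, while *Cd3d*, *Cd3e* and *Cd3g* are lowest in NAg at 934, 1885 and 643.

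At rest, *Cd3d*, *Cd247* and *Lat* were lower in tolerized than in naive cells, the other 6 genes did not pass the test, and none was higher. Each value below is a normalized count, the read count divided by the library's relative size after TMM scaling, which takes most genes as unchanged between libraries, and a gene passed where its Benjamini-Hochberg adjusted p over all tested genes in edgeR's quasi-likelihood test was under 0.05. The number higher was 0 in edgeR, 0 at an unadjusted p under 0.05 and 0 in DESeq2. The 3 of 9 members lower stand beside 12% of all tested genes that were lower and 8.42% that were higher. The median log2 fold change of the members was −0.18, against −0.08 over all tested genes.

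*Cd247*, which brings the most tyrosine motifs to the receptor complex, had the largest of these differences. Its normalized counts were 2773, 3341 and 3309 in N0 and 2004, 2117 and 2387 in T0, so that every T0 library lay below every N0 library. The log2 fold change was −0.53 ± 0.09 (SE; adjusted p = 0.00012, edgeR quasi-likelihood test). *Cd247* counts are uncertain as a measure of this gene, because 3005 of its 5372 exonic bases also lie in the oppositely oriented gene *Pou2f1* and the strand setting of the counting is not given in the sources used here. *Pou2f1*, a widely expressed octamer-binding transcription factor, was itself lower in T0 than N0 by a log2 fold change of −0.59 (adjusted p = 8.58e-06, edgeR).

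*Lat* stood at 4566, 4368 and 4093 in N0 and at 3297, 3269 and 3563 in T0, without overlap. Its log2 fold change was −0.36 ± 0.08 (adjusted p = 0.00189, edgeR). *Cd3d* was nearly the same in the 3 N0 libraries, at 2347, 2354 and 2394, and varied more in T0, at 1895, 1827 and 2284. The T0 library nearest to N0 was replicate 3, the only T0 library with few Y-linked reads (7). *Cd3d* had a log2 fold change of −0.24 ± 0.08 (adjusted p = 0.027, edgeR), and this call was lost when N0 replicate 2 or 3 or T0 replicate 1 or 2 was left out (adjusted p up to 0.149) or when Y-linked reads were a covariate (log2 fold change −0.11, adjusted p = 0.41). It was also lost with total-count scaling (−0.14, adjusted p = 0.156), with scaling to T cell surface genes (−0.17, adjusted p = 0.14) and in a fit to only these groups (adjusted p = 0.0685).

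The kinase genes did not pass the test at rest. *Zap70* was at 2260, 2150 and 2184 in N0 and at 1949, 2098 and 2425 in T0, a log2 fold change of −0.03 with a 95% interval from −0.18 to 0.13. *Lck* had a log2 fold change of −0.20 (adjusted p = 0.0689, edgeR) with no overlap between 7625 to 8212 in N0 and 6518 to 7479 in T0. Without T0 replicate 3 *Lck* passed, at −0.27 (adjusted p = 0.0177, edgeR). *Fyn* had an interval from −0.26 to 0.08, *Cd3e* from −0.16 to 0.21, *Cd3g* from −0.26 to 0.10 and *Lcp2* from −0.35 to −0.00, the last with an adjusted p of 0.144. In all, the libraries of T0 and N0 did not overlap for 5 of 9 members, as for 35.0% of all tested genes.

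Other cells entered a further fit as covariates, through a score of erythroid genes and a score of neutrophil, macrophage and monocyte genes. B cell, NK and CD8 T cell genes were not in these scores, which are the ones meant wherever other cells are covariates. With these covariates 0 of 9 members passed at rest. The log2 fold changes were −0.36 for *Cd247* (adjusted p = 0.663), −0.02 for *Lat* (adjusted p = 0.999) and −0.22 for *Cd3d* (adjusted p = 0.797, edgeR). In that fit 0.0986% of all tested genes were lower in T0, against 12% without the covariates. The neutrophil sums of N0 and T0 did not overlap, so the part of other cells in these differences cannot be told apart from cell state, and in bulk libraries fewer T cells and less RNA per T cell cannot be told apart either.

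After Ag in vivo, the 3 CD3 genes were higher in tolerized than in naive cells while *Cd247*, *Zap70*, *Lat* and *Lcp2* were lower. The 3 members higher and 4 lower stand beside 20.9% and 18.5% of all tested genes, and the median of the members was −0.04 against 0.01 over all genes. *Cd3g* had 711, 597 and 622 normalized counts in NAg and 1181, 1385 and 1316 in TAg, a log2 fold change of 1.01 ± 0.09 (adjusted p = 1.24e-08, edgeR). *Cd3e* had 1997, 1732 and 1927 in NAg and 3250, 3776 and 3967 in TAg, with a log2 fold change of 0.96 ± 0.09 (adjusted p = 1.51e-08, edgeR). For both genes the lowest TAg library was well above the highest NAg library. *Cd3d* had 961, 916 and 924 in NAg and 1362, 1542 and 1336 in TAg, a log2 fold change of 0.60 ± 0.08 (adjusted p = 2.39e-06, edgeR). These differences were larger than the spread between libraries and passed in every alternative fit that kept the threshold at an adjusted p of 0.05, with log2 fold changes of 0.60, 0.94 and 0.93 for *Cd3d*, *Cd3e* and *Cd3g* when the scores of other cells were covariates.

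The genes lower in TAg were nearer to each other in size. *Lcp2* stood at 10756, 10018 and 10701 in NAg and 7733, 8104 and 7953 in TAg, a log2 fold change of −0.40 ± 0.08 (adjusted p = 0.000418, edgeR). *Zap70* stood at 8545, 8987 and 9208 in NAg and 6412, 7136 and 6909 in TAg, with −0.39 ± 0.07 (adjusted p = 0.000207, edgeR). Neither gene overlapped between the groups, and both passed with total-count scaling (−0.22 and −0.21) and with the other cells as covariates (−0.50 and −0.34).

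*Lat* was at 2650, 2933 and 3281 in NAg and at 2285, 2504 and 2250 in TAg, a log2 fold change of −0.33 ± 0.08 (adjusted p = 0.00168, edgeR). *Cd247* was at 2502, 2616 and 2151 in NAg and at 1969, 1871 and 1887 in TAg, with −0.34 ± 0.09 (adjusted p = 0.00299, edgeR), and *Pou2f1*, which shares its exonic bases, had −0.48 (adjusted p = 2.52e-05, edgeR). Both calls were lost with total-count scaling, which moved the median of all genes by 0.18 in this comparison and left *Lat* at −0.15 (adjusted p = 0.106) and *Cd247* at −0.16 (adjusted p = 0.104), and with the other cells as covariates (adjusted p = 0.355 and 0.148). *Fyn* (−0.04, 95% interval −0.20 to 0.13) and *Lck* (0.13, −0.03 to 0.29) did not pass. Members without overlap between TAg and NAg numbered 7 of 9, beside 47.7% of all tested genes.

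After PI, *Zap70* and *Lcp2* were more than 2 times as high in tolerized as in naive cells, *Fyn* and *Lck* were higher by less, and *Cd3d*, *Cd3g* and *Lat* were lower. The 4 members higher and 3 lower stand beside 18.2% and 19.7% of all tested genes, and the median of the members was 0.02 against −0.04 over all genes. *Zap70* had 6734, 6805 and 6741 normalized counts in NPI and 15210, 13599 and 15068 in TPI, a log2 fold change of 1.11 ± 0.07 and 2.16-fold (adjusted p = 6.74e-11, edgeR). *Lcp2* had 8009, 10228 and 10453 in NPI and 19852, 20574 and 21819 in TPI, a log2 fold change of 1.12 ± 0.08 and 2.17-fold (adjusted p = 3.38e-10, edgeR). No NPI library came near a TPI library for either gene. Scaled to T cell surface genes, an alternative added after the data were seen, the values were 0.85 and 0.86 and still passed. The 7 genes behind this scaling were not constant themselves, with 1 lower and 4 higher in TPI than NPI under TMM. Mean *Cd5*, for example, was 3411 in NPI and 6925 in TPI.

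*Fyn* stood at 7892, 7930 and 7679 in NPI and at 11110, 10312 and 10426 in TPI, with a log2 fold change of 0.44 ± 0.08 (adjusted p = 0.000118, edgeR). *Lck* stood at 8747, 8584 and 9491 in NPI and at 10744, 10385 and 11358 in TPI, with 0.28 ± 0.08 (adjusted p = 0.00533, edgeR). The libraries of both genes were apart, and scaled to T cell surface genes, which moved the median of all genes by −0.26, neither passed (0.17, adjusted p = 0.0676, and 0.01, adjusted p = 0.892). *Lck* also did not pass with total-count scaling (0.16, adjusted p = 0.0562).

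*Cd3d* was at 1991, 1870 and 1994 in NPI and 1576, 1433 and 1510 in TPI, a log2 fold change of −0.37 ± 0.08 (adjusted p = 0.000401, edgeR). *Cd3g* was at 1177, 1206 and 1429 in NPI and 1049, 905 and 1106 in TPI, with −0.32 ± 0.09 (adjusted p = 0.00711, edgeR), and did not pass without NPI replicate 3 (adjusted p = 0.0799) or TPI replicate 2 (adjusted p = 0.0608). *Lat* had −0.20 ± 0.08 (adjusted p = 0.0486, edgeR) with overlapping libraries, 6655 to 7641 in NPI and 6106 to 6673 in TPI, lost its call without NPI replicate 1 or 3 or TPI replicate 1 or 2 (adjusted p up to 0.203), and turned to 0.067 with the other cells as covariates (adjusted p = 0.835). With the other cells as covariates *Cd3d* (−0.35, adjusted p = 0.147), *Cd3g* (−0.41, adjusted p = 0.145) and *Lck* (0.32, adjusted p = 0.2) did not pass either, in a fit in which the share of all tested genes called lower was 4.32%. *Cd3e* (0.02, 95% interval −0.16 to 0.20) and *Cd247* (0.01, −0.17 to 0.19) did not pass and both came out lower when scaled to T cell surface genes (−0.24 and −0.25). *Pou2f1* was higher in TPI by 0.25 (adjusted p = 0.00984, edgeR). Of the 9 members, 6 had no overlap between TPI and NPI, beside 50.5% of all tested genes.

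**Figure D2:**
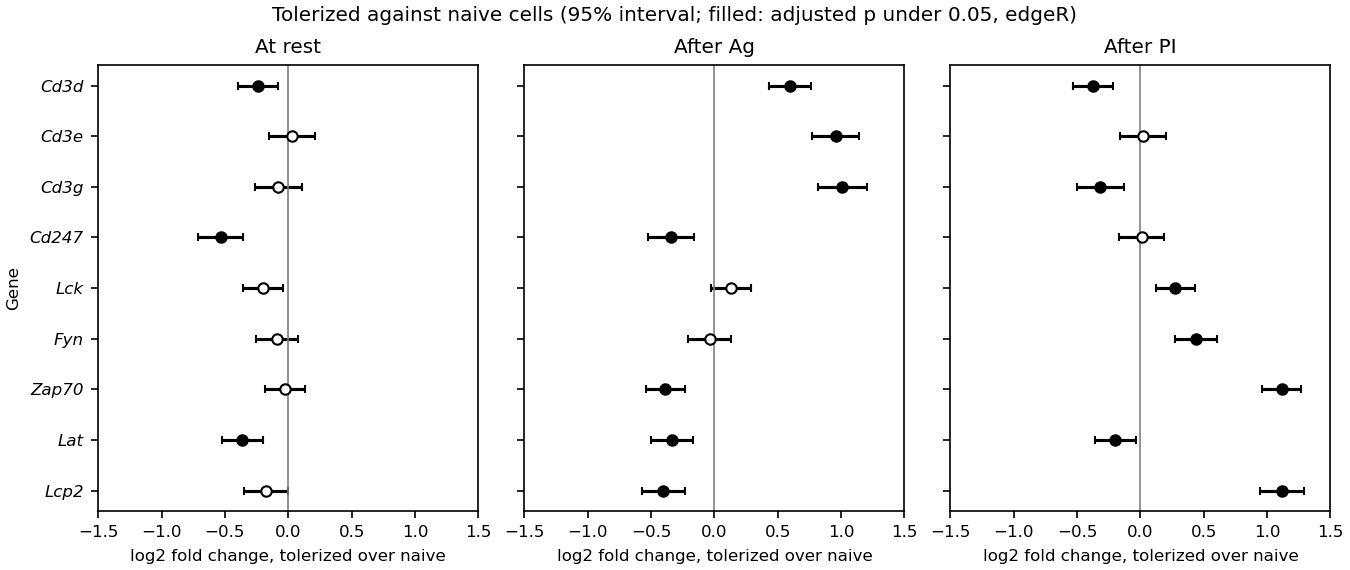
Log2 fold change of each gene in tolerized over naive cells at rest (T0 over N0), after Ag (TAg over NAg) and after PI (TPI over NPI), with 95% intervals, filled where the adjusted p was under 0.05 in edgeR. No member passed as higher at rest (*Cd3e* lies at 0.03), *Cd3d*, *Cd3e* and *Cd3g* lie right of 0 after Ag (0.60, 0.96 and 1.01), and *Zap70* and *Lcp2* lie right of 0 after PI (1.11 and 1.12) after lying left of it after Ag.

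In naive cells, Ag lowered the CD3 genes and raised *Zap70*, *Fyn* and *Lcp2*. Over N0, 6 members fell and 3 rose in NAg, beside 33.4% and 32.1% of all tested genes. *Cd3g* fell by 1.73 on the log2 scale (adjusted p = 2.57e-14), *Cd3d* by 1.34 (adjusted p = 1.39e-13) and *Cd3e* by 1.03 (adjusted p = 2.63e-10, edgeR). *Lck* fell by 0.64, *Lat* by 0.56 and *Cd247* by 0.37. *Zap70* rose 4.06-fold, from 2150 to 2260 in N0 to 8545 to 9208 in NAg, *Fyn* 2.78-fold and *Lcp2* 2.56-fold. All 9 members had no overlap between NAg and N0, beside 68.1% of all tested genes.

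In tolerized cells Ag also lowered *Cd3d* and *Cd3g* and raised *Zap70*, *Fyn* and *Lcp2*. Over T0, 4 members fell and 3 rose in TAg, beside 29.8% and 29.9% of all tested genes. *Cd3g* fell by 0.65 on the log2 scale and *Cd3d* by 0.50, while *Cd3e* was at 3504, 3845 and 4394 in T0 and 3250, 3776 and 3967 in TAg (log2 fold change −0.09, adjusted p = 0.374). *Lat* fell by 0.53 and *Lck* by 0.31, and *Zap70*, *Fyn* and *Lcp2* rose 3.16-fold, 2.88-fold and 2.19-fold. *Cd247* did not pass (−0.18, adjusted p = 0.0737), though it did without T0 replicate 1 (−0.27, adjusted p = 0.0183) and with Y-linked reads as a covariate (−0.22, adjusted p = 0.0336). Under total-count scaling, which moved the median of all tested genes by −0.33, *Cd3e* (−0.42, adjusted p = 5.95e-05) and *Cd247* (−0.51, adjusted p = 6.47e-06) passed as well, so that 6 members were lower beside 40.7% of all tested genes.

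The difference between the Ag responses of tolerized and naive cells was tested as an interaction contrast, in which 4 members came out higher and 1 lower, beside 14.6% and 7.09% of all tested genes. The largest were *Cd3g* (1.09 ± 0.13, adjusted p = 1.56e-06), *Cd3e* (0.93 ± 0.13, adjusted p = 8.22e-06) and *Cd3d* (0.84 ± 0.11, adjusted p = 5.97e-06, edgeR). *Zap70* was raised less in tolerized cells by 0.36 on the log2 scale (−0.36 ± 0.11, adjusted p = 0.0161), a call lost without N0 replicate 2 (adjusted p = 0.0539) or T0 replicate 3 (adjusted p = 0.0659). *Lck* had 0.33 ± 0.11 (adjusted p = 0.0294, edgeR) and lost its call in 7 of 12 fits with a library left out. This contrast and the comparisons above share their libraries, so the values restate one another and are not separate evidence.

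**Figure D3:**
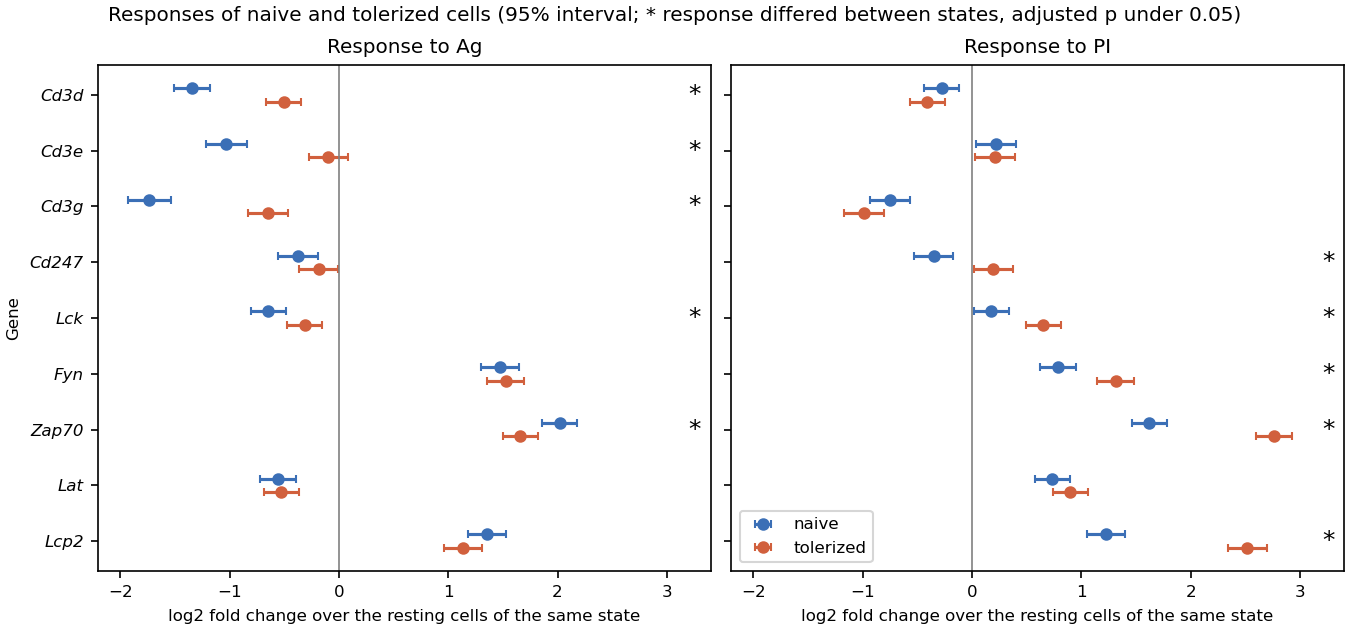
Log2 fold change of each gene over the resting cells of the same state after Ag and after PI, for naive (blue) and tolerized (orange) cells, with 95% intervals; an asterisk marks a gene whose response differed between the states at an adjusted p under 0.05. After Ag the naive points of *Cd3d*, *Cd3e* and *Cd3g* (−1.34, −1.03 and −1.73) lie left of the tolerized ones (−0.50, −0.09 and −0.65), and after PI the tolerized points of *Zap70* and *Lcp2* (2.76 and 2.52) lie right of the naive ones (1.62 and 1.22).

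PI raised the kinases and adaptors in both states. Under TMM scaling 3 members fell and 6 rose in NPI over N0, beside 32.7% and 28.6% of all tested genes, and 2 fell and 6 rose in TPI over T0, beside 36.3% and 32%. *Zap70* rose 3.08-fold in naive and 6.78-fold in tolerized cells, and *Lcp2* rose 2.34-fold and 5.73-fold. *Fyn* rose 1.73-fold and 2.49-fold. *Lat* rose 1.66-fold and 1.87-fold, though by 0.16 and 0.10 on the log2 scale under total-count scaling and by 0.22 and 0.04 under scaling to T cell surface genes. *Cd3g* fell by 0.75 on the log2 scale in naive and by 0.99 in tolerized cells, and *Cd3d* by 0.28 and 0.41. *Lck* rose by 0.18 and 0.65 and *Cd3e* by 0.22 and 0.21 under TMM, but both turned to lower under total-count scaling (*Lck* −0.40 and −0.14, *Cd3e* −0.36 and −0.59) and under scaling to T cell surface genes (*Lck* −0.34 and −0.20, *Cd3e* −0.30 and −0.65). The TMM calls of *Lck* in naive cells and of *Cd3e* in both states were each lost in 4 of 6 fits with a library left out. *Lck* in NPI over N0 was lost without N0 replicate 1, 2 or 3 or NPI replicate 3 (down to 0.11, adjusted p up to 0.306). *Cd3e* was lost in NPI over N0 without replicate 1 or 3 of either group (down to 0.13, adjusted p up to 0.256), and in TPI over T0 without T0 replicate 1 or 2 or TPI replicate 1 or 3 (down to 0.10, adjusted p up to 0.348). *Cd247* fell by 0.35 in naive cells, and in tolerized cells was 0.19 higher without passing (adjusted p = 0.0514) and turned to −0.60 and −0.66 under those scalings.

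Total-count scaling moved the median of all tested genes by −0.58 in NPI over N0 and by −0.79 in TPI over T0, and the T cell surface genes moved it by −0.52 and −0.86. Such a scaling shifts every gene of a comparison together by its construction. The surface genes also changed with PI under TMM, with 2 of 7 lower and 5 higher in NPI than N0, and 1 lower and 5 higher in TPI than T0. Mean *Cd28* was 4260 in N0 and 26002 in NPI, and 4032 in T0 and 26034 in TPI. Calls under this scaling therefore depend on a reference that changed between the groups compared.

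**Figure D4:**
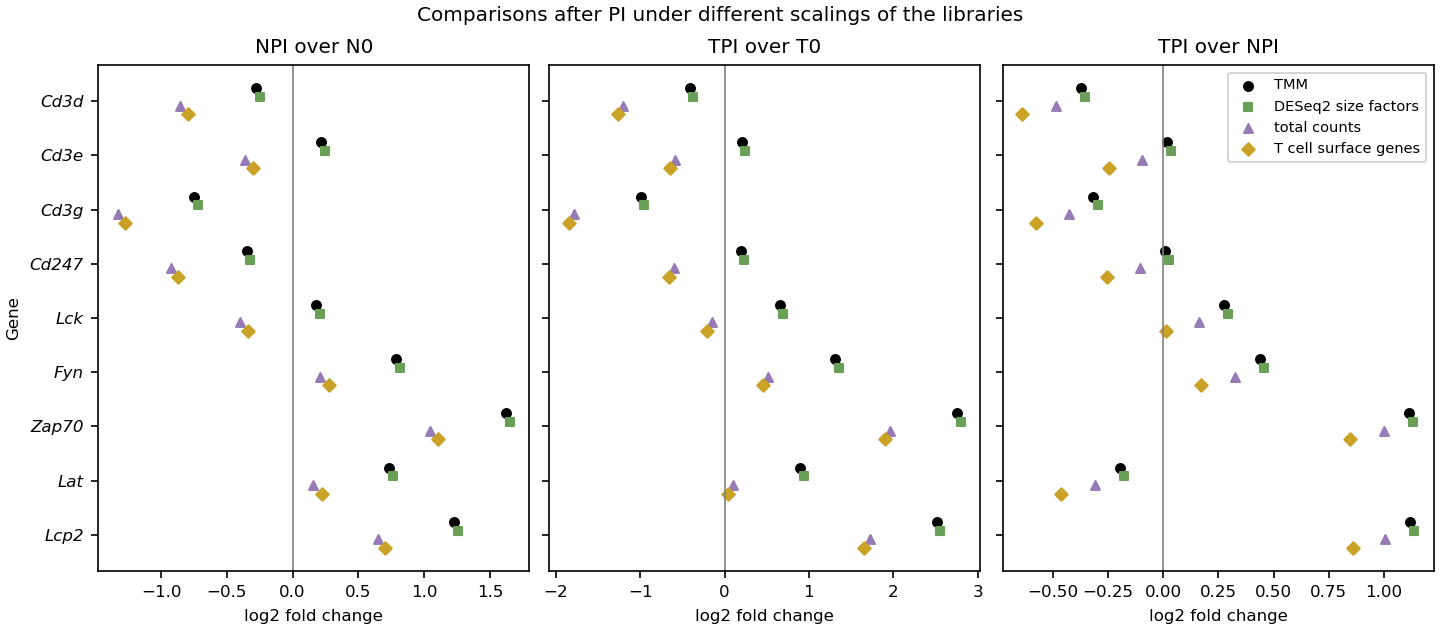
Log2 fold change of each gene in NPI over N0, TPI over T0 and TPI over NPI under 4 scalings of the libraries (TMM, DESeq2 size factors, total counts and T cell surface genes). A scaling shifts the markers of all genes together. *Zap70* and *Lcp2* stay right of 0 in TPI over NPI under all 4 scalings (0.85 to 1.13 and 0.86 to 1.14), while *Cd3e* and *Lck* cross 0 in NPI over N0 and TPI over T0.

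The PI responses differed between the states for 5 members, all higher in tolerized cells, beside 12.7% of all tested genes higher and 7.52% lower. They were *Lcp2* (1.29 ± 0.12, adjusted p = 4.87e-08), *Zap70* (1.14 ± 0.11, adjusted p = 5.82e-08), *Cd247* (0.54 ± 0.12, adjusted p = 0.00232), *Fyn* (0.53 ± 0.11, adjusted p = 0.00162) and *Lck* (0.47 ± 0.11, adjusted p = 0.00243, edgeR). *Zap70* and *Lcp2* kept these calls under every scaling. Scaled to T cell surface genes, *Cd247*, *Lck* and *Fyn* lost them (adjusted p = 0.256, 0.304 and 0.208), and total-count scaling left *Lck* at an adjusted p of 0.0511. The resting libraries that enter this contrast also enter the Ag contrast.

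Per kilobase of merged exon, which allows genes to be set beside one another, *Lat* was the highest of the 9 in N0, at 3504 ± 192 normalized counts per kb (SD, n = 3). *Lck* and *Cd3e* followed at 2698 and 2677, and *Zap70* and *Lcp2* were at 943 and 918. *Zap70* was highest of the 9 in NAg (3825), TAg (2927) and TPI (6277), and *Cd247* had the lowest value in every group, at 355 to 585, a rank that is uncertain because most of the exonic bases in its length are shared with *Pou2f1*. The order of the groups for *Zap70* was TPI, NAg, TAg, NPI, N0 and T0, in which TAg and NPI overlapped, and so did N0 and T0. *Lcp2* had TPI first as well and N0 and T0 last, with NAg, NPI and TAg overlapping in between.

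The balance of members within a library does not depend on the scaling. It is given for 4 pairs chosen after the values were seen, per kb of exon and without a test. *Zap70* to *Cd3e*, a kinase against one of the chains on which it docks, was 0.354 in N0 and 0.340 in T0, 2.93 in NAg and 1.15 in TAg, and 0.937 in NPI and 1.99 in TPI. At rest the N0 libraries (0.318 to 0.382) and the T0 libraries (0.336 to 0.343) overlapped, whereas every NAg library lay above every TAg library and every TPI library above every NPI library. *Lcp2* to *Lat* was 0.263 in N0, 0.994 in NAg and 0.371 in NPI, against 0.298, 0.941 and 0.915 in T0, TAg and TPI. After PI the naive libraries (0.291 to 0.427) lay below the tolerized ones (0.903 to 0.934), while NAg and TAg overlapped. *Fyn* to *Lck* was 0.385 in N0 and 1.68 in NAg, and 0.415 in T0 and 1.49 in TAg. *Cd3g* to *Cd3e* was 0.750 in N0, 0.458 in NAg and 0.382 in NPI, and 0.696, 0.475 and 0.303 in T0, TAg and TPI.

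**Figure D5:**
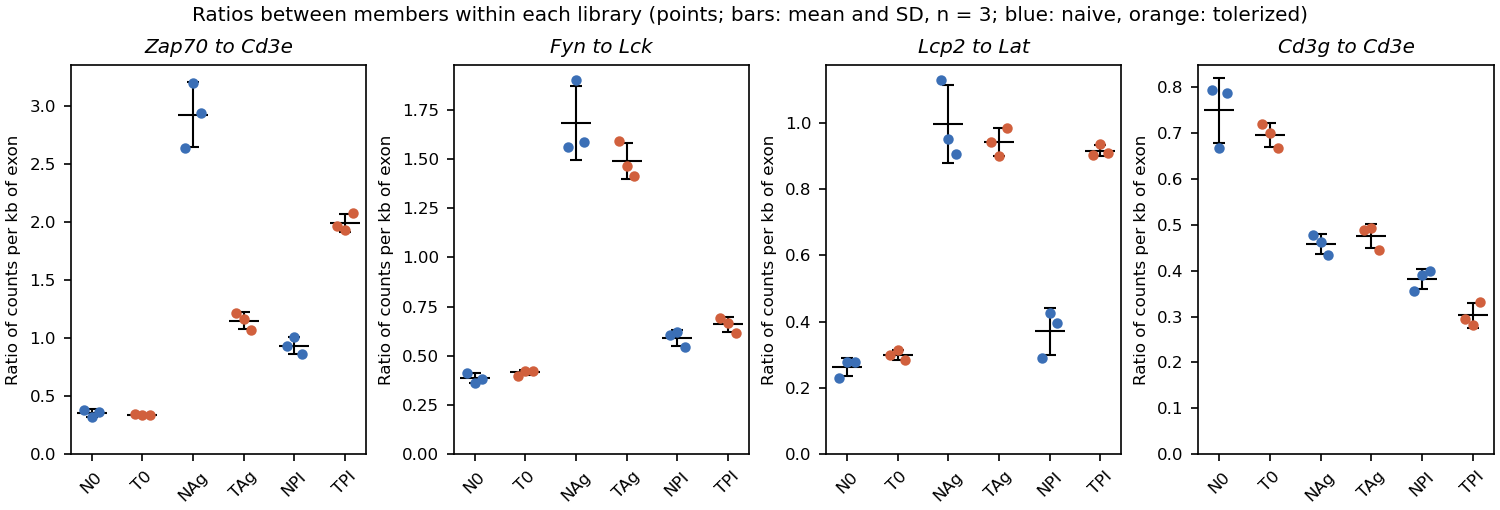
Ratios of counts per kb of exon between members in each library (points), with the mean and SD of 3 libraries (bars), for naive (blue) and tolerized (orange) groups, each axis from 0. *Zap70* to *Cd3e* is 2.93 in NAg against 1.15 in TAg and 0.937 in NPI against 1.99 in TPI, and *Lcp2* to *Lat* separates TPI (0.915) from NPI (0.371).

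Across the 18 libraries, which fall into 6 groups and share their scaling, log2(normalized count + 1) of *Zap70* and *Lcp2* had the highest correlation between members (Pearson r = 0.97), followed by *Cd3d* and *Cd3g* (0.91), *Lck* and *Lat* (0.90) and *Zap70* and *Fyn* (0.90). *Cd3g* ran opposite to *Fyn* (−0.85). The tested genes most like each member were *Wsb2* and *Rapgef1* for *Zap70* (both 0.99), *Fbxw11* and *Ppp1r15b* for *Lcp2* (both 0.99), *Zfp593* for *Fyn* (0.99), *Armcx2* and *Mapk14* for *Lck* (both 0.98), and *Polg* and *Mink1* for *Lat* (both 0.99). *Cd3g* was most like *Ppp1ca* (0.99) and *Dnajc14* (0.98), *Cd3d* most like *Rhobtb2* and *Zfp292* (both 0.98), and *Cd3e* most like *Midn* (0.96) and *Sun2* (0.94). *Cd247* had the weakest match, with *6720401G13Rik* (0.85) and *Gm14378* (0.83). The other members and their closest genes were picked as the highest of many, so these correlations are descriptions.

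Further genes of the pathway were taken from lists of its known parts. Of 18 partners of LAT and SLP-76, 7 were lower and 2 higher in T0 than N0, 6 lower and 4 higher in TAg than NAg, and 10 lower and 4 higher in TPI than NPI, with median log2 fold changes of −0.16, 0.04 and −0.24, against −0.08, 0.01 and −0.04 over all tested genes. The shares of all tested genes lower and higher were 12% and 8.42% at rest, 18.5% and 20.9% after Ag, and 19.7% and 18.2% after PI. *Themis*, a T cell adaptor known for its part in thymocyte selection, was lower in tolerized cells in all 3 comparisons, at log2 fold changes of −0.67, −1.78 and −0.82. *Grap2*, the adaptor Gads that bridges LAT and SLP-76, was lower at rest (−0.62, adjusted p = 0.000853) and after PI (−1.11, adjusted p = 4.78e-07), and was not called after Ag (0.17, adjusted p = 0.319). *Plcg1* and *Vav1*, the phospholipase and the exchange factor of the complex, did not pass at rest (−0.19 and −0.15) and were lower after PI (−0.42 and −0.33).

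Among the 7 T cell surface genes, 2 were lower and 1 higher at rest, 3 lower and 2 higher after Ag, and 1 lower and 4 higher after PI in tolerized cells. These counts, and those of the short lists that follow, stand beside the same shares of all tested genes, 12% and 8.42% lower and higher at rest, 18.5% and 20.9% after Ag, and 19.7% and 18.2% after PI. *Cd4*, whose product brings Lck to the receptor, was lower at rest (−0.43, adjusted p = 0.000392), higher after Ag (0.57, adjusted p = 4.9e-06) and lower after PI (−0.26, adjusted p = 0.0115, edgeR). *Cd5*, a negative regulator of TCR signaling, was higher after PI by 1.02 and at rest by 0.51. Of the TCR chain genes, 5 of 9 listed names were tested. At rest 1 was lower and 1 higher in tolerized cells, *Trbc1* (−0.37) and the γ chain gene *Trgc1* (2.17). *Trgc1* had low counts, at means of 10.1 in N0 and 45.8 in T0. After Ag 1 was lower and 0 higher, *Trac* (−0.47), and after PI 0 passed in either direction. Relatives of the members that signal in other blood cells were mostly not called, with 0 lower and 2 higher of 10 at rest, 2 lower and 0 higher after Ag and 0 lower and 1 higher after PI. *Syk*, the relative of *Zap70*, had group means of 393 to 663 normalized counts, and *Fcer1g*, the relative of *Cd247*, had 57.2 to 110, and neither was called in these 3 comparisons.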

How the data were processed

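CD4 T cell RNA was sequenced in 6 groups of 3 libraries, as the sample labels give them. The authors aligned the reads to the mm9 mouse genome with TopHat2 2.1.1 and deposited raw counts of reads per Ensembl gene from HTSeq 0.9.1, and the submitters' notes also name DESeq2 1.18 and edgeR 3.24. The strand setting and overlap mode of counting are not given in the sources used here. The ages of the mice and the times of treatment were taken from the study's methods.

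Names and positions came from an annotation of the same build (NCBIM37), for 37205 of 37991 genes. Counts were analyzed with R 4.3.3 and edgeR 4.0.16. The tests covered the 17240 genes whose mean normalized count reached 3 in any group. After TMM scaling, 1 model with 6 group means took in all 18 libraries, and its contrasts went through the robust quasi-likelihood F test, with Benjamini-Hochberg adjustment over all these genes. Passing was an adjusted p under 0.05. Total counts ran from 10758571 to 24119489, which gave every member at least 508 reads in each library. The procedure was tested on simulated data. Alternatives included DESeq2 1.42.0, other scalings, covariates, leaving out each library and the combined rule at a 2-fold change. Replicate numbers did not pair the libraries. The study describes its RNA-seq replicates as biological, but the labels do not say that replicates are separate mice. The p-values therefore measure the spread between libraries within groups. That spread was estimated over all 18 libraries, with the estimates of single genes drawn toward those of other genes.

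The members and lists were chosen with earlier results of these data known. The named genes are the 9 members, 2 to 4 genes per list (defining genes and the largest and smallest changes that passed), and for each member the 2 tested genes with the highest correlation of log2(normalized count + 1). Some genes that this rule names are not reported here. The T cell surface scaling, the pairs of the ratios and *Pou2f1* were chosen after values were seen.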

Additional observations from a re-analysis of the deposited data

Results flagged for a closer look

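The response to Ag differed between tolerized and naive cells, in the test of the interaction, for *Cd3d* (0.84 on the log2 scale), *Cd3e* (0.93), *Cd3g* (1.09), *Lck* (0.33) and *Zap70* (−0.36). *Zap70* and *Lck* were near the threshold, with calls that were lost in 2 and 7 of 12 fits with a library left out. The response to PI differed for *Lcp2* (1.29), *Zap70* (1.14), *Cd247* (0.54), *Fyn* (0.53) and *Lck* (0.47), each higher in tolerized cells. Of these, *Zap70* was raised less by Ag and more by PI in tolerized than in naive cells, and *Lcp2* did not pass in the Ag contrast (−0.23, adjusted p = 0.188, edgeR). *Cd247* stood beside a larger difference of 0.85 for *Pou2f1*, whose exons overlap it on the other strand. Groups of 3 were not tested for outlying libraries.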

How the results depend on the processing

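DESeq2's test, its size factors in edgeR, no low-count filter, a fit to only the groups compared and the replicate block each left 78 or 79 of the 81 member values on the same side of the threshold and in the same direction. With the replicate block, which is given only as a check because 2 of 45 pairs of same-numbered libraries had a correlation over 0.1, *Lck* in T0 over N0 passed (−0.20, adjusted p = 0.0494) and *Lat* in TPI over NPI did not (adjusted p = 0.0535). With the marker scores of other cells as covariates, 66 of 81 stayed, and the number of members lower was 0 in T0 over N0, 2 in TAg over NAg, 0 in TPI over NPI and 1 in TPI over T0, and *Lat* turned to 0.067 in TPI over NPI. Calls over all tested genes dropped in the same fit, to 0.0986% lower in T0 over N0, 9.74% in TAg over NAg, 4.32% in TPI over NPI and 20.1% in TPI over T0. With Y-linked reads as a covariate, 74 stayed and 1 member was lower in NPI over N0, beside 26% of all tested genes.

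With total counts, 64 stayed. The number lower was 2 in TAg over NAg, 5 in NPI over N0, 4 in TPI over T0 and 2 in the PI interaction. Of all tested genes 10.4%, 52.9%, 59.5% and 18.8% were lower in that fit. The number higher was 3 in NPI over N0 and 3 in TPI over T0, beside 15.7% and 15.6% of all tested genes. Scaled to T cell surface genes (added after the data were seen), 62 stayed. In TPI over NPI 5 were lower and 2 higher, beside 34.5% and 9.28% of all tested genes. In NPI over N0 5 were lower, beside 50.2%. In TPI over T0 5 were lower and 3 higher, beside 60.6% and 14.3%. In the PI interaction 3 were lower and 2 higher, beside 24.3% and 4.36%. Under total counts and this scaling *Cd3e* turned to −0.36 and −0.30 in NPI over N0 and to −0.59 and −0.65 in TPI over T0. *Lck* turned to −0.40 and −0.34 and to −0.14 and −0.20, and *Cd247* turned to −0.60 and −0.66 in TPI over T0. The surface genes also turned *Cd3e* (−0.24) and *Cd247* (−0.25) in TPI over NPI. The shift in these settings follows from the scaling itself, which moves all genes of a comparison together. Total counts also moved the levels, for example from 6.78-fold to 3.91-fold for *Zap70* in TPI over T0.

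The combined rule at a 2-fold change, which is stricter by construction, left 0 lower in T0 over N0, 0 lower and 0 higher in TAg over NAg, 0 lower and 2 higher in TPI over NPI, 2 lower in NAg over N0, 0 lower in TAg over T0, 0 lower and 2 higher in NPI over N0, 0 lower and 3 higher in TPI over T0, 0 lower and 1 higher in the Ag interaction and 2 higher in the PI interaction. The combined rule was counted for the members only, so its counts have no share of all tested genes beside them and cannot be set against one. With 1 library left out, 559 of 594 values stayed, 31 lost their call and 4 gained one. The number lower in TPI over NPI was between 1 and 3 (1 without NPI replicate 3 or TPI replicate 2). In the Ag interaction it was between 0 and 1 (0 without N0 replicate 2 or T0 replicate 3). Of all tested genes, 16.5% and 17.1% were lower in those TPI over NPI fits, and 6.03% and 6.36% in those interaction fits. The cause of changes not named here was not tested. Each member had at least 508 reads in every library.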
